A study of Mus musculus with 3 samples.

Results

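The 10 genes described here, which cells switch on within minutes to hours of a stimulus or of stress, were followed through single cells of B16-F10 melanoma tumors: 4 subunits of the AP-1 transcription factor (Fos, Fosb, Jun, Junb), 3 other early transcription factors (Egr1, Atf3, Nr4a1) and 3 inducible heat shock genes (Hspa1a, Hspa1b, Dnajb1). They were taken by gene symbol, as 10 of the 32285 genes in the count matrices. Each of the 3 libraries came from the pooled fresh tumors of 3 C57BL/6J mice aged 6 to 8 weeks: 1 library labelled shCtrl, a control hairpin, and 2 labelled shMib2, each with its own hairpin against Mib2, an E3 ubiquitin ligase. B16-F10 is a mouse melanoma line. All 3 groups of tumors were minced, digested with enzymes and mechanically dissociated, and red cells were lysed before droplet capture with a kit that reads transcripts from the 5′ end. The 2 shMib2 libraries differ in hairpin, and p-values comparing them with the single shCtrl library measure the spread between these 2 libraries.

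Immediate early genes need no new protein to be transcribed. Kinase cascades activate factors already bound at their promoters, and the mRNAs are short-lived. Fos and Jun family proteins pair to form AP-1. Hspa1a and Hspa1b encode nearly identical HSP70 chaperones and are induced by heat shock factor 1 when proteins unfold, and Dnajb1 encodes an HSP40 cochaperone that hands clients to HSP70. Enzymatic dissociation of tissue is itself known to induce many of these genes, and no library here was prepared without it, so expression in the tumor and expression gained during preparation cannot be told apart.

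Cells were assigned to 6 classes by marker genes, none of them among the 10 genes described: melanoma (Pmel, Mlana, Dct, Tyrp1, Tyr, Sox10), T, NK, B, myeloid and fibroblast cells. The libraries held 9558, 9428 and 8388 barcodes (shCtrl, shMib2 replicate 1, shMib2 replicate 2), and 7882, 6640 and 5061 were gated. Melanoma cells numbered 7725, 5535 and 3484 with median depths of 26510, 24146 and 38984 UMIs, T cells 77, 532 and 796 with 1564, 1585 and 2720, and fibroblasts 16, 302 and 275 with 8955, 8153 and 12427. The shCtrl library gave only 15 NK, 46 B and 3 myeloid cells, so its values in these classes rest on few UMIs. In each class all 6 of its own markers were detected in every library, except Adgre1 in the 3 myeloid cells of shCtrl. Melanoma markers in the other classes reached 1.71% to 9.6% of their level in melanoma cells, apart from B cells of shCtrl (18.1%) and of shMib2 replicate 1 (11%), and the deepest of the 46 shCtrl B cells held 37.1% of their UMIs. Library pairs shared 30, 25 and 20 barcodes. The targeted gene, Mib2, showed no reduction with either of its hairpins. Its level in melanoma cells was 2.51 UMIs per 1000000 UMIs (CPM) for shCtrl, against 3.11 and 2.68 for the shMib2 pair (log2 difference 0.17 ± 0.13 (SE), edgeR adjusted p = 0.608), so directions below are between libraries as labelled.

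Hspa1a and Hspa1b stand in the same orientation on chromosome 17, with 9951 bases between them, and each is a single exon (Hspa1a 17:34969190-34972156 and Hspa1b 17:34956436-34959238, minus strand, mm10, GENCODE annotation). The 250 bases upstream of their start sites are shown because the genes shared an almost identical upstream sequence yet were counted very differently in melanoma cells. Capitals mark the one heat shock element found by the motif GAANNTTC or TTCNNGAA, searched on both strands. Sequences are from RefSeq (GRCm38.p6), written 5′ to 3′ on the minus strand, chr17:34972157-34972406 for Hspa1a and chr17:34959239-34959488 for Hspa1b.
Hspa1a: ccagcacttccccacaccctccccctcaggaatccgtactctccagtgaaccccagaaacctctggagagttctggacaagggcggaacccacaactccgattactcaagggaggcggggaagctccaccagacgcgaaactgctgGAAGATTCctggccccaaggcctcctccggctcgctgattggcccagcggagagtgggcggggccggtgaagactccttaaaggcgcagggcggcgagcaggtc
Hspa1b: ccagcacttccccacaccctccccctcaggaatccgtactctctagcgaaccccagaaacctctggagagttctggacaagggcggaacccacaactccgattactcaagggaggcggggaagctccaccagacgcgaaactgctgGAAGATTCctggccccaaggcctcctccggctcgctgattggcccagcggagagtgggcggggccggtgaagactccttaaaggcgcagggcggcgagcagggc
Of these 250 bases 247 were identical, and the 3 substitutions, counted from 1 at the left end with the Hspa1a base first, were C44T, T47C and T249G. The heat shock element, at bases -104 to -97 from the start site, was the same in both. The motif occurred in 12.8% of the 32851 RefSeq promoter windows of this length and, among the 9 members with an entry, also in Jun. The transcripts are 2967 and 2803 bases long, and 49.3% of the 90-base windows of Hspa1a occurred unchanged in Hspa1b. Within the first 500 bases 50.4% of windows were particular to each gene, and within the last 500 bases 100.0% were. Reads from shared windows cannot be assigned to either gene, so the counts of both are incomplete.

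The upstream sequences of Fosb, whose level differed between the labelled groups in melanoma cells, and of Nr4a1, whose level in melanoma cells and fibroblasts did not differ at the threshold, are shown with capitals at matches to the cyclic AMP response element core TGACG or its complement CGTCA (Fosb chr7:19310046-19310295, minus strand; Nr4a1 chr15:101266596-101266845, plus strand; GRCm38.p6).
Fosb: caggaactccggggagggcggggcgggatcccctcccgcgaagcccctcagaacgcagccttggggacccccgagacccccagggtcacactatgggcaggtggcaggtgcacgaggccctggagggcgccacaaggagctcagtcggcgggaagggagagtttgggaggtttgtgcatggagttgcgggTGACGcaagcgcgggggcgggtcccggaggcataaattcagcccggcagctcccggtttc
Nr4a1: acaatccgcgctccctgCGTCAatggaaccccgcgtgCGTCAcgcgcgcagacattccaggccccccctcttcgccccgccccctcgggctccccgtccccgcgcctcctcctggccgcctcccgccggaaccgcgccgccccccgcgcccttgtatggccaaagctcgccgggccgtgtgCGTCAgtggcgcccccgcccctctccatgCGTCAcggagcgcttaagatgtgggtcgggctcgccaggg
This 5-base core occurred once upstream of Fosb and 4 times upstream of Nr4a1, in 6 of the 9 members with an entry, and in 17.8% of all promoter windows. None of the 9 members held the full element TGACGTCA (1.55% of all windows), the AP-1 site TGANTCA (6.75%) or a CArG box (1.47%) in these 250 bases.

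As a share of all UMIs of a class, most members were lower in melanoma cells than in the other classes. Melanoma cells were much deeper (median 26510 UMIs in shCtrl, against 1564 in T cells), so a lower share does not mean fewer UMIs per cell. In fibroblasts 9 of the 10 genes were higher than in melanoma cells, in myeloid cells 10, in NK cells 8, and in T and B cells 7 each, and none was lower (edgeR quasi-likelihood test on UMI sums, 3 libraries, library as a block, adjusted p under 0.05). Without shMib2 replicate 2 the B cell count was 4, with Egr1, Hspa1b and Dnajb1 no longer called. Against 7021 genes tested, the share called higher was 37.7% for fibroblasts, 23.2% for myeloid, 28.9% for NK, 37.5% for T and 19.9% for B cells, and the share called lower 31.6%, 23.6%, 30.7%, 36.3% and 20.4%. The members' median log2 difference was 3.01 in fibroblasts, 3.28 in myeloid, 2.04 in NK, 1.99 in T and 2.15 in B cells, where the median over all genes tested lay between -0.29 and 0.05. In B cells edgeR called 1400 of all genes higher and 1429 lower, and DESeq2 1825 and 1009. In sums over cells, more cells with an active gene and more RNA per cell cannot be told apart.

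**Figure D1:**
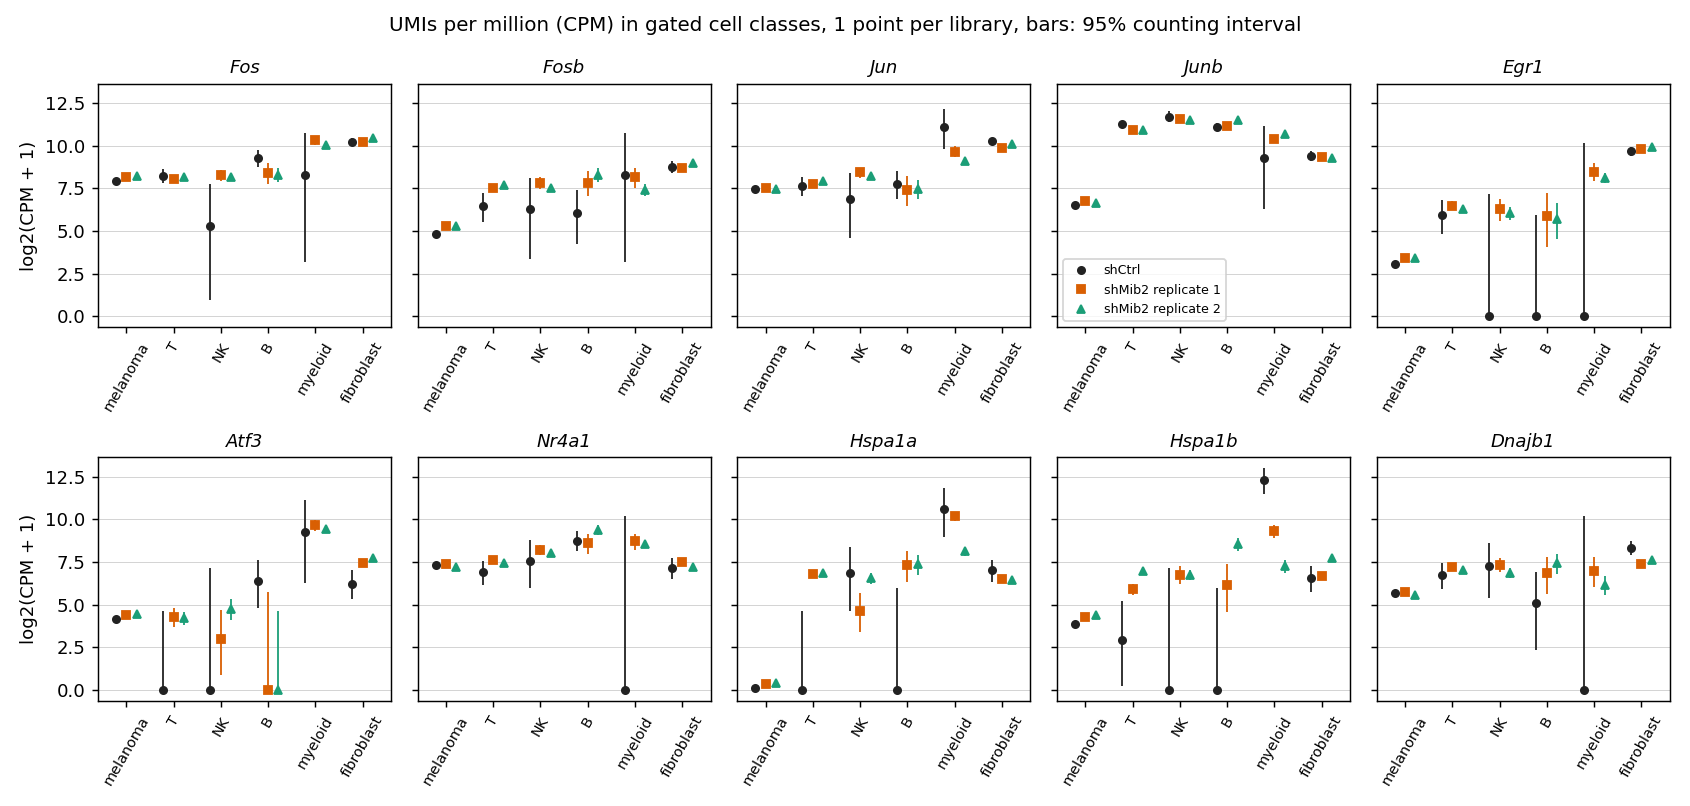
Levels of the 10 genes in each gated class, as log2(CPM + 1), with 1 point per library and bars for the 95% Poisson counting interval. Junb separated lymphocytes from melanoma cells, Egr1 peaked in fibroblasts and Hspa1a was near 0 in melanoma cells, and the long bars belong to the few NK, B and myeloid cells of the library labelled shCtrl.

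Fos, the archetypal immediate early gene, had its highest mean level in fibroblasts, at 1209, 1207 and 1409 CPM (in the order shCtrl, shMib2 replicate 1, shMib2 replicate 2, as for all values below). In melanoma cells it stood at 240, 281 and 295 CPM and in T cells at 303, 264 and 290. The fibroblast values lay above every melanoma and T cell value, and the latter overlapped. Against melanoma cells the log2 difference was 2.40 ± 0.29 (SE) in fibroblasts (adjusted p = 7.24e-09) and 0.28 ± 0.29 in T cells (adjusted p = 0.399), which passed with cells thinned to 1000 UMIs (0.73, adjusted p = 0.00169). Myeloid cells gave 313, 1274 and 1041 CPM, the first from 1 UMI, and did not differ from fibroblasts at the threshold (fibroblasts over myeloid cells, log2 difference 0.30 ± 0.31, adjusted p = 0.482). In B cells of shCtrl Fos reached 612 CPM, but 30 of those 37 UMIs came from 1 cell, against 342 and 310 CPM in the other libraries.

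Fosb, which encodes a close paralog of Fos, followed a steeper order. It was at 27, 37.4 and 38.7 CPM in melanoma cells, 85.6, 181 and 206 CPM in T cells and 436, 411 and 497 CPM in fibroblasts. The 3 classes did not overlap. T cells exceeded melanoma cells by 2.47 ± 0.21 (adjusted p = 2.44e-12) and fibroblasts by 3.84 ± 0.21 on the log2 scale (adjusted p = 1.18e-17). Neighbours among T, NK, B and myeloid cells did not differ at the threshold, and fibroblasts exceeded myeloid cells (log2 difference 1.22 ± 0.28, adjusted p = 0.000641).

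Jun, the main partner of Fos proteins, overlapped between melanoma cells (176, 182 and 179 CPM) and B cells (215, 171 and 177 CPM). Fibroblasts held 1234, 921 and 1092 CPM, a log2 difference from melanoma cells of 2.76 ± 0.20 (adjusted p = 3.32e-14). T cells, at 198, 214 and 244 CPM, passed the test narrowly with 0.54 ± 0.20 (adjusted p = 0.0183), and this call was lost without shMib2 replicate 1 (0.52, adjusted p = 0.381), without replicate 2 (0.50, adjusted p = 0.314), with DESeq2 (adjusted p = 0.0824) and with 3 markers required per cell (0.22, adjusted p = 0.461). NK cells, at 114, 344 and 303 CPM, passed with 0.90 ± 0.22 (adjusted p = 0.00076), but not without shMib2 replicate 1 (0.52, adjusted p = 0.44) or replicate 2 (0.82, adjusted p = 0.151). In myeloid cells the mean level was the highest of all classes only through 7 UMIs in 1 of the 3 shCtrl cells (2191 CPM). The other libraries gave 804 and 547 CPM, and in the fit, which weighs libraries by depth, fibroblasts were higher than myeloid cells (log2 difference 0.64 ± 0.23, adjusted p = 0.0289).

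Junb, a Jun family member with weaker transactivation, had another class order. NK cells were highest at 3348, 3032 and 2872 CPM, followed by B cells (2218, 2254 and 2909 CPM) and T cells (2443, 1968 and 1963 CPM). Melanoma cells held 90.1, 108 and 98.1 CPM, below every other class in every library. The log2 difference from melanoma cells was 5.05 ± 0.34 in NK, 4.81 ± 0.34 in B and 4.67 ± 0.33 in T cells (adjusted p = 6.17e-15, 5.49e-14 and 1.47e-14). NK, B and T cells did not differ from one another as neighbours, and fibroblasts, at 673, 658 and 624 CPM, stood below myeloid cells (log2 difference 1.04 ± 0.31, adjusted p = 0.00801). A Junb UMI was found in 96.1%, 90.8% and 96.5% of T cells, and among T cells with at least 1000 UMIs, thinned to 1000, in 84.1%, 80.0% and 82.1% (14, 91 and 19 shallower T cells left out) against 8.47%, 10.1% and 9.21% of melanoma cells. Melanoma RNA at the level set by melanoma markers would give 3.27 to 5.78 CPM of Junb in T cells.

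Egr1, a zinc finger factor induced by growth factor signaling, was highest in fibroblasts at 810, 902 and 980 CPM, and stood in T cells at 59.3, 88.9 and 77.2 CPM and in melanoma cells at 7.26, 9.50 and 9.50 CPM. The 3 classes did not overlap. The fibroblast difference from melanoma cells, 6.85 ± 0.23 on the log2 scale (adjusted p = 9.49e-24), was the largest of any member apart from Hspa1a. An Egr1 UMI was present in 75.0%, 84.1% and 79.6% of fibroblasts and in 12.1%, 13.7% and 15.0% of melanoma cells, although melanoma cells were the deeper class. Among cells with at least 1000 UMIs, thinned to 1000, the shares were 60%, 57.8% and 52.7% of fibroblasts and 0.794%, 0.858% and 1.08% of melanoma cells, with 1, 8 and 15 shallower fibroblasts and 38, 58 and 160 shallower melanoma cells left out. Myeloid cells followed with 355 and 275 CPM in the shMib2 libraries and 0 UMIs in the 3 shCtrl cells.

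Atf3, a stress-induced factor of the ATF/CREB family, was led by myeloid cells at 626, 814 and 684 CPM. Fibroblasts held 74.8, 173 and 211 CPM and melanoma cells 16.9, 20.1 and 20.7 CPM. Myeloid cells exceeded melanoma cells by 5.29 ± 0.30 and fibroblasts by 2.03 ± 0.27 on the log2 scale (adjusted p = 7.76e-17 and 1.36e-07), and without the shCtrl library the first difference was 5.41. Lymphocytes had little: T cells gave 0, 18.4 and 17.4 CPM, NK cells 0, 6.88 and 26.1 CPM, and B cells 82.8 CPM from 5 UMIs and then 0 and 0. None of these 3 classes differed from melanoma cells at the threshold, although T cells did with cells thinned to 1000 UMIs (-0.89, adjusted p = 0.0442) and B cells, then at 0 UMIs, without the shCtrl library (adjusted p = 0.0367).

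Nr4a1, an orphan nuclear receptor that antigen receptor signaling induces in lymphocytes, departed from the other members. Fibroblasts, at 143, 179 and 148 CPM, overlapped melanoma cells, at 158, 169 and 145 CPM (log2 difference 0.14 ± 0.20, adjusted p = 0.538). Without the shCtrl library the difference was 0.29 (adjusted p = 0.0211). B cells were highest with 430, 385 and 670 CPM, above melanoma cells by 1.90 ± 0.24 (adjusted p = 6.25e-08), and NK cells held 190, 296 and 261 CPM (0.85 ± 0.23, adjusted p = 0.00192), a call lost without shMib2 replicate 1 (0.59, adjusted p = 0.337) or replicate 2 (0.80, adjusted p = 0.136). Myeloid cells (0, 418 and 375 CPM) exceeded melanoma cells by 1.42 ± 0.25 (adjusted p = 1.81e-05), and by 1.11 and 1.24 without shMib2 replicate 1 or 2 (adjusted p = 0.0755 and 0.0551). T cells, at 119, 194 and 173 CPM, did not pass (0.29 ± 0.21, adjusted p = 0.214), and passed without the shCtrl library (0.47, adjusted p = 0.00035). None of the 5 neighbouring pairs in the order of its levels, B, myeloid, NK, T, melanoma and fibroblast cells, differed at the threshold. Among pairs further apart, B cells exceeded NK and T cells (log2 difference 1.05 ± 0.27 and 1.62 ± 0.25, adjusted p = 0.00554 and 1.04e-05). Myeloid cells exceeded T cells (1.13 ± 0.26, adjusted p = 0.000808), while T cells and fibroblasts did not differ (adjusted p = 0.585).

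Hspa1a was barely detected in melanoma cells. Only 17, 42 and 43 Hspa1a UMIs were counted there at 0.0777, 0.301 and 0.333 CPM, while the same cells held 2975, 2554 and 2564 UMIs of Hspa1b (13.6, 18.3 and 19.8 CPM). With 1 UMI per molecule and transcripts of similar length, Hspa1a made up 0.568%, 1.62% and 1.65% of the UMIs of the pair in melanoma cells. In the shMib2 libraries it made up 64.9% and 48.2% in T cells and 64.7% and 65.2% in myeloid cells. Fibroblasts gave 58.3%, 46.8% and 29.2%, the last with 437 of the 825 Hspa1b UMIs in 1 cell. The upper 95% limit in melanoma cells, 2.21%, lay below the lower limit in every other class with over 3 UMIs of the pair, the lowest of which was 7.74% in NK cells of shMib2 replicate 1.

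**Figure D2:**
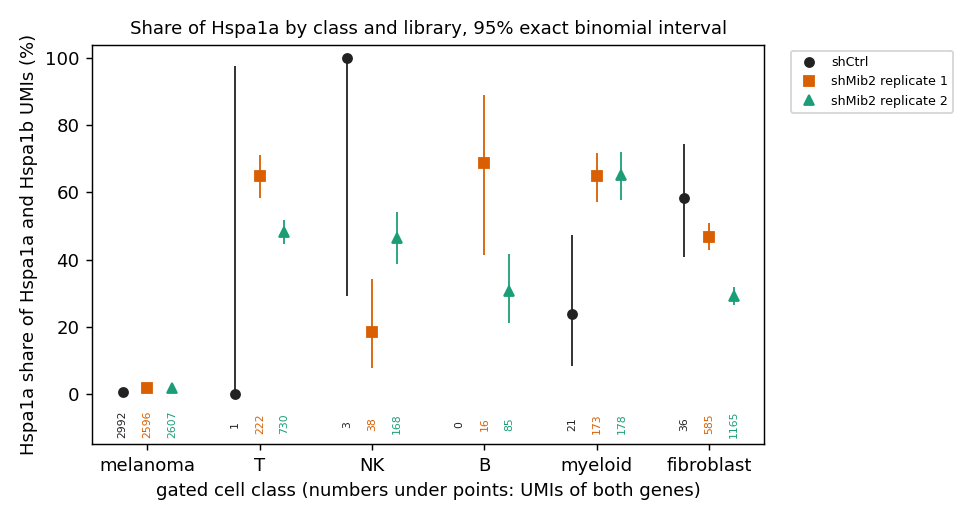
Share of Hspa1a among Hspa1a and Hspa1b UMIs (percent) by class and library, with exact 95% binomial intervals that cover counting error only and the number of UMIs of both genes under each point. Melanoma cells sit at 0.568% to 1.65%, and the other classes in the shMib2 libraries at 18.4% to 68.8%. In fibroblasts of shMib2 replicate 2, 1 cell held 437 of the 825 Hspa1b UMIs.

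Outside melanoma cells Hspa1a reached 131, 91.1 and 87.3 CPM in fibroblasts, 110 and 116 CPM in T cells of the shMib2 libraries, and 1565, 1169 and 282 CPM in myeloid cells. The log2 difference from melanoma cells was 8.66 ± 0.46 in fibroblasts, 8.78 ± 0.47 in T cells and 11.35 ± 0.52 in myeloid cells (adjusted p = 5.93e-18, 5.48e-18 and 2.56e-19). The shCtrl myeloid value came from 5 UMIs of 1 cell, and without that library the myeloid difference was 10.97. Hspa1b was higher than in melanoma cells as well, by 3.13 ± 0.40 in fibroblasts (93.5, 103 and 212 CPM), 2.32 ± 0.41 in T cells (6.58, 59.8 and 124 CPM) and 4.55 ± 0.53 in myeloid cells (5008, 637 and 151 CPM; adjusted p = 1.79e-08, 7.85e-06 and 9.03e-09). All 16 Hspa1b UMIs of the shCtrl myeloid cells came from 1 cell. A single myeloid cell held 36.1% and 24.2% of them in the shMib2 libraries. With DESeq2 the T cell difference was 1.56 (adjusted p = 0.242) and that in NK cells, 2.49 ± 0.51 with edgeR, was 2.02 (adjusted p = 0.153). In B cells (0, 71.3 and 373 CPM) the difference of 3.61 ± 0.62 fell to 1.5 without shMib2 replicate 2 (adjusted p = 0.364). A single fibroblast of shMib2 replicate 2 held 437 of the 825 Hspa1b UMIs, and without it the level there was 99.7 CPM. Few lymphocytes carried the pair. In T cells of the shMib2 libraries a Hspa1a UMI was found in 7.14% and 7.79% of cells and a Hspa1b UMI in 5.45% and 9.92%, and 21 and 48 cells held both.

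Dnajb1 had the flattest profile of the 3 heat shock members. Fibroblasts held 318, 165 and 195 CPM, of which 1 shCtrl cell contributed 27 of 51 UMIs, T cells 105, 147 and 132 CPM, and melanoma cells 50.2, 53.2 and 46.6 CPM. The differences from melanoma cells were 2.21 ± 0.21 in fibroblasts and 1.66 ± 0.21 in T cells (adjusted p = 1.64e-11 and 1.91e-08). The smaller myeloid difference (1.02 ± 0.37, adjusted p = 0.0234) turned to -0.58 when 3 markers were required per cell and was lost without shMib2 replicate 1 (0.70, adjusted p = 0.327) or replicate 2 (1.41, adjusted p = 0.122). The B cell difference of 1.54 ± 0.38 was 0.82 without shMib2 replicate 2 (adjusted p = 0.413).

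The 2 lists of related genes behaved differently from each other. Of 21 other immediate early genes tested, 18 were higher than in melanoma cells in T, NK, myeloid and fibroblast cells and 16 in B cells. Btg2, an antiproliferative gene, was among the 4 strongest in all 5 classes (log2 difference 5.18 ± 0.22 in fibroblasts to 7.09 ± 0.25 in B cells), and Zfp36, which encodes an mRNA-destabilizing protein, likewise (4.46 ± 0.23 in T cells to 6.50 ± 0.26 in myeloid cells). Ier3 was lower in T, NK and B cells (-1.84 ± 0.27, -2.64 ± 0.37 and -2.96 ± 0.59), Nr4a3, a relative of Nr4a1, in myeloid cells and fibroblasts (-0.97 ± 0.38 and -1.29 ± 0.20), and Dusp2, a phosphatase of MAP kinases, in fibroblasts (-1.96 ± 0.32). Over all 7021 genes tested, the share called higher in T, NK, B, myeloid and fibroblast cells was 37.5%, 28.9%, 19.9%, 23.2% and 37.7%. The share called lower was 36.3%, 30.7%, 20.4%, 23.6% and 31.6%. In the same order of classes, 5, 3, 3, 1 and 5 of 21 other heat shock genes tested were higher and 6, 8, 9, 9 and 8 lower. The lower ones included Hspd1, the mitochondrial HSP60 (-2.68 ± 0.27 in myeloid cells to -1.39 ± 0.19 in fibroblasts), and Hsp90aa1, a cytosolic HSP90 (-1.88 ± 0.28 in NK cells to -1.13 ± 0.26 in fibroblasts). Hspb1, a small heat shock protein, was higher in fibroblasts (7.15 ± 0.26) and T cells (2.45 ± 0.36). The median log2 difference of the heat shock list lay between -0.63 and -0.11, and that of all genes tested between -0.29 and 0.05.

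Among single melanoma cells the members differed in how evenly they were spread. Melanoma cells with at least 10000 UMIs were thinned to 10000, which left out 256, 292 and 649 shallower cells. This depth was chosen after seeing the data because thinning to 1000 left at most 10 cells with both Atf3 and Hspa1b. Hspa1b UMIs were found in 6.95%, 7.51% and 7.51% of the cells kept, and the top 1% of cells held 48.8%, 45.8% and 50.7% of them. Nr4a1 lay at the other end, in 67.5%, 67.7% and 62.4% of cells, with 5.42%, 5.38% and 5.62% of UMIs in the top 1%. Fos, Jun and Junb gave 7.42% to 9.77% in the top 1%, Fosb 12.5% to 14.4%, Dnajb1 16.6% to 16.8%, Atf3 24.2% to 28.8% and Egr1 27.8% to 36.1%. A gene with fewer UMIs is more concentrated by counting alone. The maximum in a single thinned cell was 29, 33 and 43 UMIs for Hspa1b and 13 to 17 for Nr4a1. The more evenly spread Fos (36, 37 and 50) and Jun (40, 27 and 58) had maxima similar to those of Hspa1b.

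**Figure D3:**
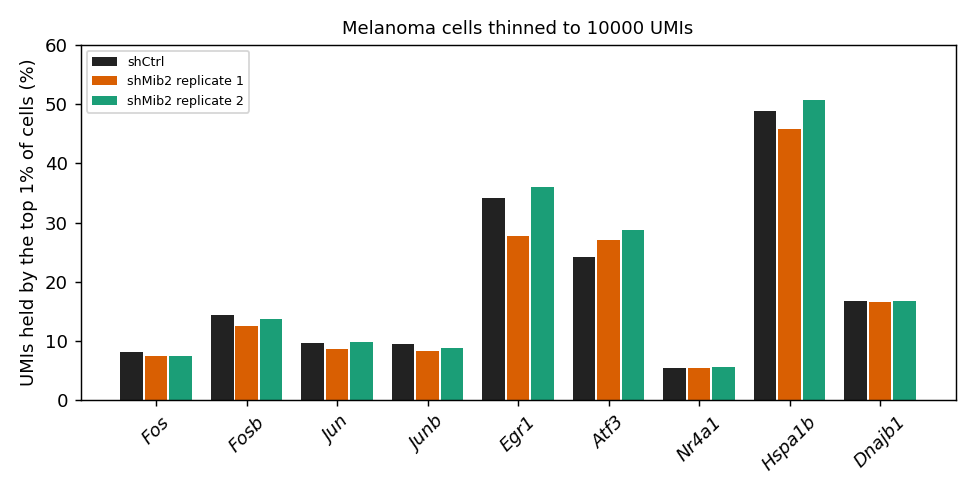
Percent of each gene's UMIs held by the top 1% of melanoma cells, after thinning to 10000 UMIs per cell, by library. Hspa1b stands at 45.8% to 50.7% and Nr4a1 at 5.38% to 5.62%, and Hspa1a is left out because it had too few UMIs.

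The cells with Hspa1b were also richer in some of the other members, and in the same ones in all 3 libraries. Melanoma cells with at least 1 Hspa1b UMI after thinning (519, 394 and 213 cells) held 5.31, 5.0 and 4.89 times the Dnajb1 level of the cells without, 4.51, 4.23 and 4.10 times the Atf3 level, 2.70, 2.42 and 2.6 times the Jun level and 2.00, 1.74 and 1.99 times the Egr1 level. Fos gave 1.23, 1.05 and 1.21. Fosb (1.01, 1.00 and 1.01) and Junb (1.01, 0.964 and 1.07) lay near 1, and Nr4a1 was lower (0.720, 0.729 and 0.871). Of the other heat shock genes, named here after their values were seen, Hspb1 (12.9, 9.52 and 31.0 times), Dnajb4 (2.66, 2.56 and 2.14), Bag3 (2.35, 2.40 and 1.98) and Hsph1 (1.92, 1.91 and 1.84) were above 1, while the constitutive chaperone Hspa8 lay near 1 (1.01, 1.04 and 0.998). The median over that list was 1.14, 1.17 and 1.07, with 19, 17 and 16 of 22 genes above 1. The list of other immediate early genes had medians of 1.66, 1.48 and 1.52, with 16 of 20, 18 of 21 and 18 of 21 genes above 1. The ratio was not computed over all genes, so whether these counts and medians exceed those of all genes is not known. Cells are not replicates, so these ratios are a description without a test.

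**Figure D4:**
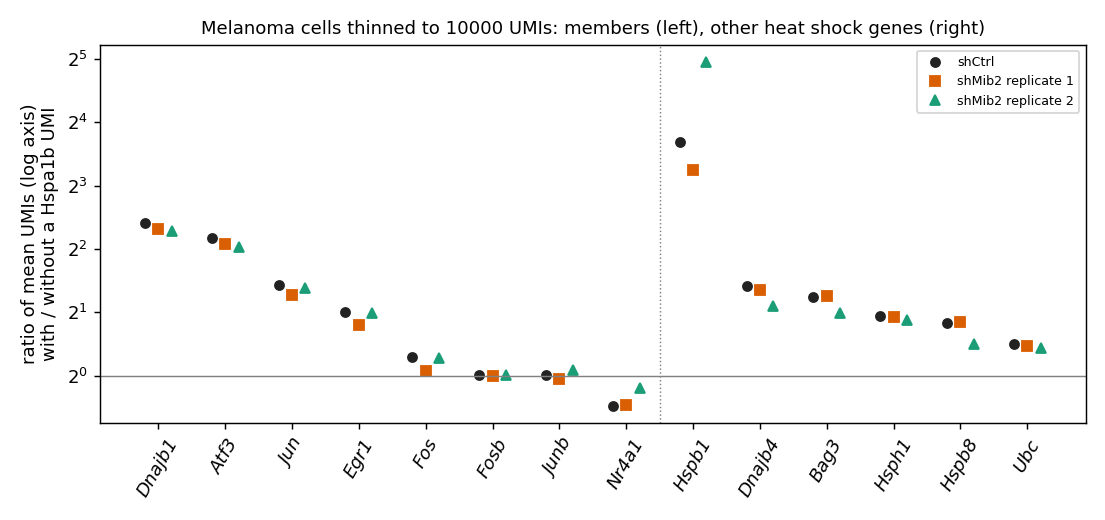
Ratio of the mean UMIs of each gene in melanoma cells with a Hspa1b UMI to that in melanoma cells without one (log axis), cells thinned to 10000 UMIs, with 1 point per library, members on the left and the 6 other heat shock genes with the highest ratios on the right. Dnajb1, Atf3, Jun and Egr1 lie above 1 in all 3 libraries, Fosb and Junb near 1 and Nr4a1 below 1.

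Counted as cells positive for both genes over the number expected if the genes were independent, the pairs Atf3 and Hspa1b (2.81, 2.50 and 2.68) and Hspa1b and Dnajb1 (1.98, 1.83 and 1.96) stood highest, and Egr1 and Atf3 gave 1.44, 1.55 and 1.71. Fos and Fosb were found together 1.23, 1.21 and 1.22 times as often as under independence, and Nr4a1 and Hspa1b 0.870, 0.964 and 0.888 times. The ratio has a lower ceiling for widely detected genes such as Fos, found in 68.5%, 72.4% and 71.6% of these cells. Pairs of unlike detection therefore cannot be ranked by it alone. Depth and mitochondrial share moved with these levels. When melanoma cells were split into 3 equal parts by depth, the part with the fewest UMIs had more Hspa1b (30.1, 38.9 and 72.6 CPM against 7.86, 10.7 and 9.0 in the part with the most), more Atf3 (30.01, 30.3 and 44.1 against 12.4, 15.5 and 15.3 CPM) and more Jun (220, 225 and 244 against 157, 164 and 156 CPM). Dnajb1 was higher there too (71.3, 71.9 and 74.2 against 44.0, 48.7 and 39.3 CPM), as were Egr1, Junb and Hspa1a. Fos was lower there (232, 284 and 280 against 250, 292 and 301 CPM), and the direction for Fosb and Nr4a1 varied between libraries. Split by mitochondrial share, the highest part had more Fos (297, 317 and 356 against 195, 244 and 237 CPM) and Junb (120, 131 and 123 against 69.1, 88.2 and 77.7 CPM) than the lowest. The part of depth and mitochondrial share in the joint expression was not tested.

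In melanoma cells 8 of the 10 members were higher in both shMib2 libraries than in the library labelled shCtrl, as were 45.3% of the 15356 genes tested, against 25.5% that were lower in both. Of the 10, 1, Fosb, passed the test over all these genes (edgeR, 2 libraries against 1). The share of genes called higher was 0.99%, and that called lower 0.0195% (152 and 3 genes, and 167 and 23 with DESeq2). Fosb rose from 27 CPM to 37.4 and 38.7 CPM, a log2 difference of 0.46 ± 0.06 (adjusted p = 0.0321), and this call was lost with the stricter cell filter (0.46, adjusted p = 0.0727) and with no limit on markers of other types (0.45, adjusted p = 0.0725). Hspa1b (0.46 ± 0.08, adjusted p = 0.0815), Egr1 (0.35 ± 0.07, adjusted p = 0.105) and Hspa1a (1.98 ± 0.40, adjusted p = 0.121) did not pass. Fibroblast markers in melanoma cells summed to 1.55, 16.7 and 11.6 CPM and T cell markers to 0.19, 1.08 and 1.59 CPM. B cell markers went the other way, at 4.31, 3.66 and 3.68 CPM. The part of RNA from other classes in these differences was not tested. Atf3, Fos and Junb had differences of 0.23, 0.23 and 0.16, and Nr4a1 and Dnajb1 of -0.05 and -0.04. Neither these 5 genes nor Jun, at 176 CPM against 182 and 179, were called. The members' median was 0.23 against 0.01 over all genes. Of 22 other immediate early genes tested 1 was called, Socs3, a feedback inhibitor of cytokine signaling (0.53 ± 0.06, adjusted p = 0.0194), and of 22 other heat shock genes none (edgeR, 0 also at an unadjusted p under 0.05).

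**Figure D5:**
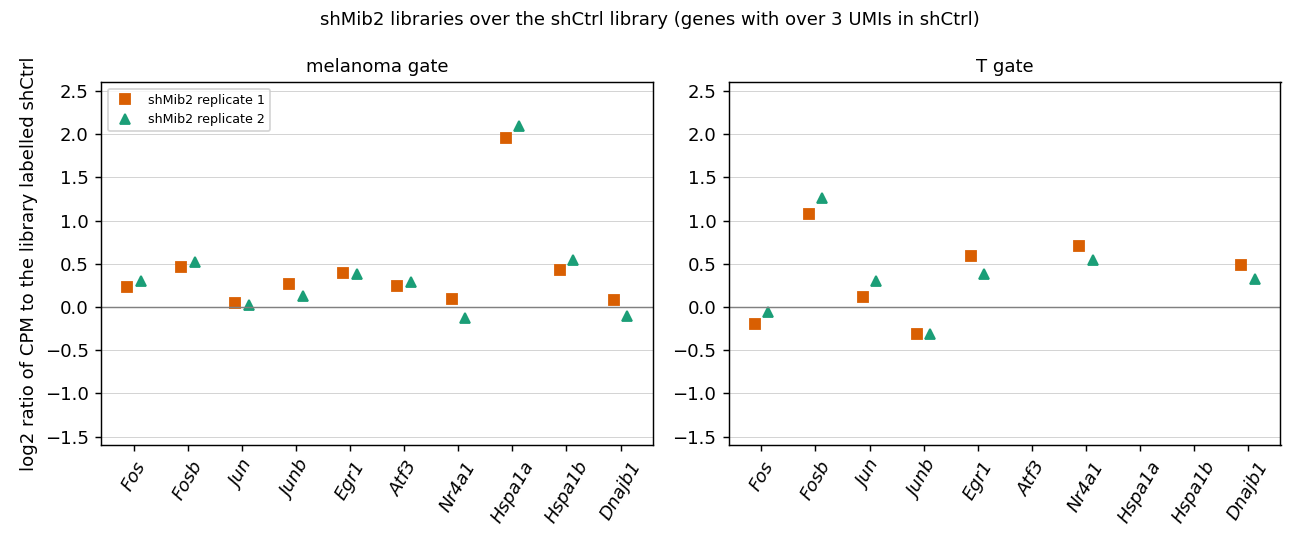
Log2 ratio of the CPM in each shMib2 library to that in the library labelled shCtrl, in melanoma cells (left) and T cells (right), for genes with over 3 UMIs in shCtrl. In melanoma cells Fosb, Egr1, Hspa1a and Hspa1b are among the 8 of 10 members above 0 in both libraries, and in T cells Junb and Fos lie below 0.

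In T cells 8 members were higher and 2 lower in both shMib2 libraries, where 53.6% of the 8753 genes tested were higher and 33.2% lower in both. The 8 include Atf3 and Hspa1a at 0 UMIs and Hspa1b at 1 UMI in shCtrl. In the test 1 of the 10 passed, where 0.194% of genes were called higher and 0.149% lower. Hspa1a had 0 UMIs in the 77 T cells of shCtrl, and 144 and 352 UMIs (110 and 116 CPM) in the shMib2 libraries. Against a floor of 3 UMIs in the shCtrl library the mean of the shMib2 libraries was at least 5.72-fold higher (edgeR adjusted p = 0.00627, DESeq2 adjusted p = 0.989). A Hspa1a UMI was found in 0 of the 77 shCtrl T cells, at their median depth of 1564 UMIs. It was found in 7.14% and 7.79% of T cells of the shMib2 libraries, at 1585 and 2720. Among T cells thinned to 1000 UMIs it was found in 0 of 63 for shCtrl, and in 4.54% and 5.41% for the shMib2 libraries. A floor of 3 cells would be 3.90% of the 77 and 4.76% of the 63. These floors are not interval limits, and whether the shares of cells differ beyond counting error was not tested. Fosb stood at 85.6 CPM from 13 UMIs against 181 and 206 CPM (1.10 ± 0.32, adjusted p = 0.237), and Junb at 2443 against 1968 and 1963 CPM (-0.41 ± 0.12, adjusted p = 0.222). Among the related lists only Klf2, a quiescence factor of lymphocytes, was called, as lower (-1.19 ± 0.17, adjusted p = 0.00561).

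In B cells 8 members could be tested among 1246 genes, of which 0.0803% were called higher. Hspa1b, the 1 called (adjusted p = 0.00477), had 0 UMIs in the 46 shCtrl B cells, 5 UMIs in 1 cell of shMib2 replicate 1 and 59 UMIs in 11 cells of replicate 2. The mean of the shMib2 libraries was 4.47-fold above the floor of 3 UMIs in shCtrl (49.7 CPM). Replicate 1 stood at 71.3 CPM and replicate 2 at 373 CPM, so the mean rests mostly on replicate 2. With B cells limited to under 25% of their library's median melanoma marker share the adjusted p was 0.331, with equal UMIs per library 0.795 and with DESeq2 0.998. NK, myeloid and fibroblast cells had fewer than 20 cells in shCtrl and were not tested.

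Over the 18 library and class sums the genes most like each member, by Spearman correlation of log2(CPM + 1) among 2845 genes with a mean of at least 50 CPM, were Klf4 for Fos (0.816) and Fosb (0.851), Sh3glb1 for Jun (0.928) and Atf3 (0.901), Dennd4a for Junb (0.934), Isg15 for Egr1 (0.936), Napsa for Nr4a1 (0.887), Dleu2 for Hspa1a (0.786), Cmpk1 for Hspa1b (0.835) and Cast for Dnajb1 (0.866). The next in rank were Rhob and Hcfc1r1 for Fos, Hnrnpul2 and Arf4 for Fosb, Prdx5 and Anxa3 for Jun, Shisa5 and Pnrc1 for Junb, Nucb1 and Tppp3 for Egr1, Ctsb and Gng5 for Atf3, Syk and Ppp1r15a for Nr4a1, Ctsc and Plac8 for Hspa1a, Map3k8 and Wfdc17 for Hspa1b, and Runx1 and Ddx3x for Dnajb1. The sums share libraries and differ in depth, so the coefficients are given as a description. Jun, Junb, Atf3 and Hspa1a overlap a gene on the opposite strand in GENCODE (Junos, Prdx2, Gm24748 and Gm20481), and whether counting used strand is not given in the sources used here, so reads of such pairs cannot be told apart.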

How the data were processed

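The authors prepared single-cell RNA-Seq libraries from pooled tumors and deposited, per library, raw UMI counts per gene and barcode, made with Cell Ranger 4.0.0 on mm10 per the labels, with no cell annotation. Barcodes under 200 genes or over 20% mitochondrial UMIs were dropped, and cells were gated on at least 2 own markers, 2 more than of any other non-melanoma type and a melanoma marker share under 50% of the library's median. Melanoma cells had at least 25% of that median and at most 1 marker of each other type. Counts were summed per library and class. Classes were compared with edgeR 4.0.16 (TMM, filterByExpr, quasi-likelihood test, library as a block), since the classes of a library share its tumors, and shMib2 was compared with shCtrl where each library had at least 20 cells (melanoma, T and B cells), so NK, myeloid and fibroblast cells had none. DESeq2 1.42.0, other gates, filters, scalings and thinning were alternatives. P-values were adjusted over all genes tested by Benjamini-Hochberg. Genes named from the related lists were up to 4 per direction with the lowest p per comparison. Doublets were left out only by the gate. Intervals are 95% and cover counting error only. Total depth was 243926188, 190904274 and 203298455 UMIs. On simulated counts with 100 genes changed at a log2 size of 1 and 100 at 2, the test recovered 91 and 95 in melanoma cells (15356 genes), 6 and 28 in T cells (8753 genes), 0 and 12 in B cells (1246 genes), and 99 and 100 for T against melanoma cells (7021 genes). False calls numbered 6, 0, 1 and 9 in this order. The simulation gave every gene the same dispersion (spread between libraries), unlike real genes, so recovery in the data can differ. The members and lists were chosen with earlier results of these data known.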

Additional observations from a re-analysis of the deposited data

Results flagged for a closer look

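The following ratios of the mean CPM of the 2 shMib2 libraries to that of the library labelled shCtrl lay above 1 in both shMib2 libraries in one class and below 1 in both in another, and the difference between classes was not tested. Fos had a ratio of 1.2 in melanoma cells, 0.916 in T cells and 0.532 in B cells, where 1 shCtrl cell held 30 of 37 UMIs. Jun had a ratio of 1.02 in melanoma cells and 1.16 in T cells against 0.809 in B cells, where 1 shCtrl cell held 9 of 13 UMIs. Junb had a ratio of 1.14 in melanoma cells and 1.16 in B cells against 0.804 in T cells.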

How the results depend on the processing

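Among the class comparisons 692 values kept their direction and side of the threshold under the alternatives, 26 lost a call, 7 gained one and 25 changed sign. For shMib2 against shCtrl the counts were 307, 10, 10 and 13. Here the values with a shMib2 library left out had no test. They count among the 307 if they lay within the SE of the reported difference, and 14 further ones moved by more. For members not called in the reported fit, the direction of these untested values was not compared. The lymphocyte, myeloid and fibroblast values of shCtrl rest on few cells. No paired analysis was possible because shMib2 was compared with a single shCtrl library. Without the library block the members called were the same in number (T 7, NK 8, B 7, myeloid 10, fibroblast 9).

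The number of genes called between shMib2 and shCtrl, 155 in melanoma cells, was 742 with no filter on low counts, 102 with no limit on other markers and 82 with the strict cell filter. In T cells it was 30, and 88 with no filter, 0 with at least 50 UMIs, 18 with DESeq2 size factors, 2 with DESeq2 (93 at an unadjusted p under 0.05), 72 with 3 markers, 73 with the stricter melanoma share, 72 with the strict cell filter, 97 with predicted doublets removed and 73 with equal UMIs per library. In B cells it was 2, and 8 with no filter, 12 with at least 50 UMIs, 7 with no cell filter, 18 with the strict cell filter and 0 with DESeq2 (16 at an unadjusted p under 0.05), 3 markers, the stricter melanoma share or equal UMIs. The members called in B against melanoma cells ranged from 4 to 7 when a library was left out. The cause of these changes was not tested. Against melanoma cells, DESeq2 size factors shifted the median log2 difference of all genes by -0.14 in T, 0.10 in B and 0.11 in fibroblast cells, and DESeq2 by -0.12, 0.30 and 0.12.

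In melanoma cells Hspa1b passed with DESeq2 (adjusted p = 0.0339) and Egr1 with no limit on other markers (0.68, adjusted p = 0.0453), and both passed, with Hspa1a, under no filter on low counts. Among the settings with a test, values that changed sign were, for shMib2 against shCtrl, Jun in melanoma cells (0.00214 with at least 50 UMIs, 0.00793 with the stricter share, 0.00134 with no cell filter, 0.00097 with equal UMIs), Jun and Egr1 in T cells with equal UMIs (-0.0114 and -0.0502), and in B cells Fos (2.82 with 3 markers, 0.67 with the stricter share), Jun (1.04, stricter share), Junb (-0.25 and -0.46) and Nr4a1 (-0.00596 and -0.40). Against melanoma cells they were Atf3 in T cells (0.0246 with no block, 0.0174 without shCtrl), Fos in NK cells (-0.0477 with no filter, -0.00836 with at least 50 UMIs, -0.0768 with DESeq2, -0.33 to 0.24 when a library was left out), Atf3 in NK cells (-0.0683 with no filter, -0.0717 with at least 50 UMIs, -0.0113 with size factors, -0.27 with DESeq2, -0.0433 with the strict filter, -0.13 thinned, -1.57 to 0.21 when a library was left out), Fos in B cells (-0.0247 with 3 markers), Jun in B cells (-0.0932 with no filter, -0.0363 with at least 50 UMIs), Atf3 in B cells (0.10 with size factors, 0.0844 with no block, 0.45 with DESeq2, -11.93 to 1.28 when a library was left out, the first a fitted value with 0 UMIs in both remaining libraries, 0.26 with the strict filter), Nr4a1 in fibroblasts (-0.00728 with at least 50 UMIs) and Dnajb1 in myeloid cells (-0.58 with 3 markers). Of these only Dnajb1 was called in the reported fit.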
